A study of Mus musculus with 10 samples.

Results

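The interferon response genes described here are 40 genes that a cell transcribes more when interferon binds its receptors, or that carry the interferon signal itself. They were taken by gene symbol from a list of well known members of the response, chosen with earlier results of these data known. All 40 were found among the 23337 genes of the deposited count table for mouse right atrium. All 40 were also among the 13084 genes with enough reads to be tested.

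Interferons are secreted proteins that bind paired receptors on the cell surface. Type I interferon receptors signal through the kinases Jak1 and Tyk2 to the factor complex ISGF3, which contains Stat2 and Irf9 and binds a DNA element called the interferon-stimulated response element (ISRE). Type II interferon signals through Jak1 and Jak2 and acts on another element, the gamma-activated site (GAS). The genes that these factors switch on encode nucleic acid sensors, proteins that block steps of viral growth, GTPases that attack the compartments of intracellular microbes, and parts of the class I antigen presentation machinery. In the heart they are expressed by cardiomyocytes, fibroblasts, endothelial cells and resident macrophages, and whole tissue does not separate these sources.

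Right atrial RNA was sequenced in 10 libraries, each from 1 mouse, of which 4 carry the label control and 6 the label Tbx5 mutant. The mutant mice carried a removal of exon 3 of Tbx5, a transcription factor of the atria, made by a tamoxifen-inducible Cre recombinase under the ubiquitous R26 promoter, so that the deletion was not limited to cardiomyocytes (Tbx5 fl/fl;R26CreERt2). The control mice of the study carry the Cre without the floxed allele (R26CreERt2), whereas the labels of these right atrial mice say only Control. The labels give the same treatment for both groups: tamoxifen injections of 0.167 mg daily over 3 days, with tissue taken 1 week after them. The strain is labelled as mixed, and the labels give ages of both 8 to 10 weeks and 6 to 8 weeks. In both groups the labels number males from M1 and females from F1, with 2 of each sex among the control mice and 3 of each among the mutant mice.

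The targeted gene itself did not follow the labels. Tbx5 was at 215, 198, 224 and 184 CPM (reads relative to the library's total, here the TMM-scaled total, per 1000000 reads) in control M1, M2, F1 and F2, and at 275 to 475 CPM with a median of 417 in the mutant mice. All 6 mutant mice lay above all 4 control mice (log2 fold change 0.94 ± 0.15 SE, edgeR adjusted p = 0.000495). A count over the whole gene includes transcripts that lack the removed exon. The groups are therefore called by their labels throughout, and each direction below is that of the mice labelled Tbx5 mutant relative to the mice labelled control. The libraries held 5703775 to 7095141 reads on genes. The ribosomal RNA gene Rn45s took 38.9% of them in mutant M3 and 0.268% to 1.49% in the others. Reads of the X-linked gene Xist and the Y-linked gene Ddx3y went against the sex labels of all 4 control mice and with those of all 6 mutant mice. Of 6 atrial cardiomyocyte markers, all were detected, and 4 were lower in the mutant mice.

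Of the 40 interferon response genes, 23 rose in the mutant mice and 0 fell, at an edgeR adjusted p under 0.05, a fold change over 1.5 and a mean normalized count over 1 in the control mice. DESeq2 and limma, run as alternatives, also called 0 lower. At an unadjusted p under 0.05, 1 was lower, a count for which no share of all genes is given. Among all genes tested, 8.5% were called higher and 7.16% lower by this rule. The median log2 fold change of the 40 genes was 0.80, against -0.0050 for all genes tested, and 38 of the 40 had a value above 0. The median and the counts of this paragraph include 6 genes, named below, that were tested only through the higher values of the mutant mice. The filter itself favoured a rise in these 6. At the adjusted p alone, 27 interferon response genes were higher and 1, Trim25, was lower, where 16.3% of all genes were higher and 15% lower. The remaining 12 genes did not pass the test. Every mutant mouse lay above every control mouse for 13 of the 40 genes, where the same held for 11.7% of all genes tested. Zbp1, Oas3 and Oasl1, tested only through the mutant mice, are among the 13. Every mutant mouse lay below every control mouse for 1, again Trim25, and for 11% of all genes.

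**Figure D1:**
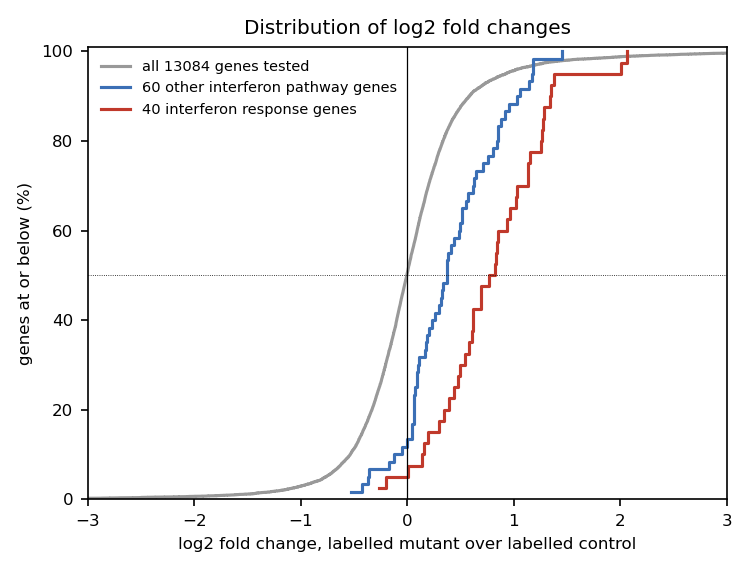
Distribution of edgeR log2 fold changes (x axis, labelled mutant over labelled control) as the percentage of genes at or below each value (y axis), for the 40 interferon response genes, 60 other genes of the interferon pathway and all 13084 genes tested. The curve of the 40 genes crosses 50% near its median of 0.80 and that of all genes crosses it near 0.

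The levels per length differed widely between the 40 genes. Per kilobase of the longest annotated transcript, Ifitm3 was highest, at 88.7 CPM per kb in the control mice and 143 CPM per kb in the mutant mice, followed by Ifi27l2a at 60.8 and 133 CPM per kb and Bst2 at 22.5 and 46.3 CPM per kb. At the low end, Oas3 was at 0.112 and 0.478 CPM per kb. The low genes rest on few reads. For Zbp1, Oas3, Oasl1, Oas1a, Mx1 and Isg15, the control mice alone did not reach the minimum of 1.58 CPM of the unscaled total in 4 libraries that the filter asks for, so these 6 genes were tested only through the higher values of the mutant mice. Of the other 34 genes, 18 rose.

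Promoters of 4 interferon response genes are shown because these genes rose and hold the DNA elements read by interferon factors in different arrangements. Promoter sequences from RefSeq (GRCm38.p6, the build that the submitters name as mm10) were matched for 28 of the 40 genes. An ISRE core, written GAAANNGAAA and searched on both strands, was present in the 250 bases before the start in 12 of the 28 (42.9%) and in 3.46% of the 27025 genes with a promoter in the same source. A GAS core, TTCNNNGAA, was present in 6 of the 28 (21.4%) and in 8.13% of all, and both were present in 3 of the 28 (10.7%) and in 0.4% of all. The other 13 of the 28, among them Irf7, Irf9 and Tap1, held neither. Each sequence below is the 150 bases before the annotated start, read 5′ to 3′ on the strand of the gene, with matches in capitals.
Isg15, chr4:156200819-156200968, reverse strand: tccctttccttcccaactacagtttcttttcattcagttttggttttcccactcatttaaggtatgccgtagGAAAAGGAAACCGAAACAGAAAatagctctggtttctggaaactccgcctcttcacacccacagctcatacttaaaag
Bst2, chr8:71537473-71537622, reverse strand: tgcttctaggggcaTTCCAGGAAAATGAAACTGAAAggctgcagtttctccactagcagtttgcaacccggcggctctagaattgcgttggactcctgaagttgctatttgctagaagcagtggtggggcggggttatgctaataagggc
Igtp, chr11:58199406-58199555, forward strand: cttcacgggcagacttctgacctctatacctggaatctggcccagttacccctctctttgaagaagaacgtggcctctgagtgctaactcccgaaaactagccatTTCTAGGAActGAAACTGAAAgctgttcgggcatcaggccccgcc
Rsad2, chr12:26456453-26456602, reverse strand: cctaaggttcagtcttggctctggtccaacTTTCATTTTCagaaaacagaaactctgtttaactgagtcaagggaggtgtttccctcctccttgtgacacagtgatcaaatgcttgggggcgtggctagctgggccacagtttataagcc

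In Isg15 the capitals are 3 overlapping ISRE cores that begin 78, 72 and 66 bases before the start. In Bst2 a GAS core that begins at 136 bases runs into ISRE cores at 130 and 124 bases. Igtp has a GAS core at 45 bases and an ISRE core at 34 bases, set apart by a pair of bases, and Rsad2 has 1 ISRE core at 120 bases, read on the opposite strand. Of the 12 genes with an ISRE core in the 250 bases, 10 rose, with a median log2 fold change of 1.00. Irgm1 and Stat2, which also hold a core, did not meet the rule. For Stat2, no GENCODE M21 transcript start was found in the promoter sequence, so the place of its core relative to the start is uncertain. In Irgm1, Tap1, Eif2ak2 and 1 of the Irf9 promoters, all 150 bases before the start lie within annotated exons. Of the 16 matched genes without a core, 6 rose, with a median of 0.52, among them Irf7, Ifitm3 and Xaf1. Both medians include genes tested only through the mutant mice: Isg15, Oas1a and Oas3 with a core and Oasl1 without one. The filter favoured a rise in these, and medians without them are not given. Without the genes that were tested only through the mutant mice, 7 of 9 with a core and 5 of 15 without one rose. Of all genes tested, 8.5% rose. The share among all genes with a core was not determined, so these counts cannot be read as a result about the core. A match of these letters is a description of the sequence and does not show that a factor was bound there.

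The factors that carry the interferon signal moved unequally. Irf7, the transcription factor that amplifies type I interferon production, was at 9.72, 12.9, 6.59 and 6.23 CPM in M1, M2, F1 and F2 of the control group (the order used below), and between 14.2 and 27.3 CPM, with a median of 20.1, in the mutant mice. The groups did not overlap, mutant M1 being the lowest of its group and control M2 the highest of the other. The change was 1.28 ± 0.23 (log2 fold change ± SE, adjusted p = 0.000922), from 8.86 ± 3.12 to 21.3 ± 5.16 CPM (mean ± SD, n = 4 and 6). Irf9, the DNA-binding subunit of ISGF3, was at 27.2, 27.8, 22.0 and 24.5 CPM in the control mice and at 31.7 to 39.8 CPM, with a median of 37.8, in the mutant mice. Again every mutant mouse was higher, but the fold was smaller (0.54 ± 0.10, adjusted p = 0.00135) and under the 1.5-fold threshold. Stat2, its partner, was at 22.7, 29.5, 20.7 and 18.0 CPM in the control mice and at 22.4 to 28.3 CPM, with a median of 24.8, in the mutant mice. The groups overlapped fully, with control M2 the highest of the 10 mice, and Stat2 did not pass the test (0.14 ± 0.13, adjusted p = 0.45). Irf1, a factor of the type II response, ranged from 28.7 to 42.6 CPM in the control mice and from 32.5 to 69.7 CPM in the mutant mice (adjusted p = 0.456), with 1 high library, mutant M3.

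**Figure D2:**
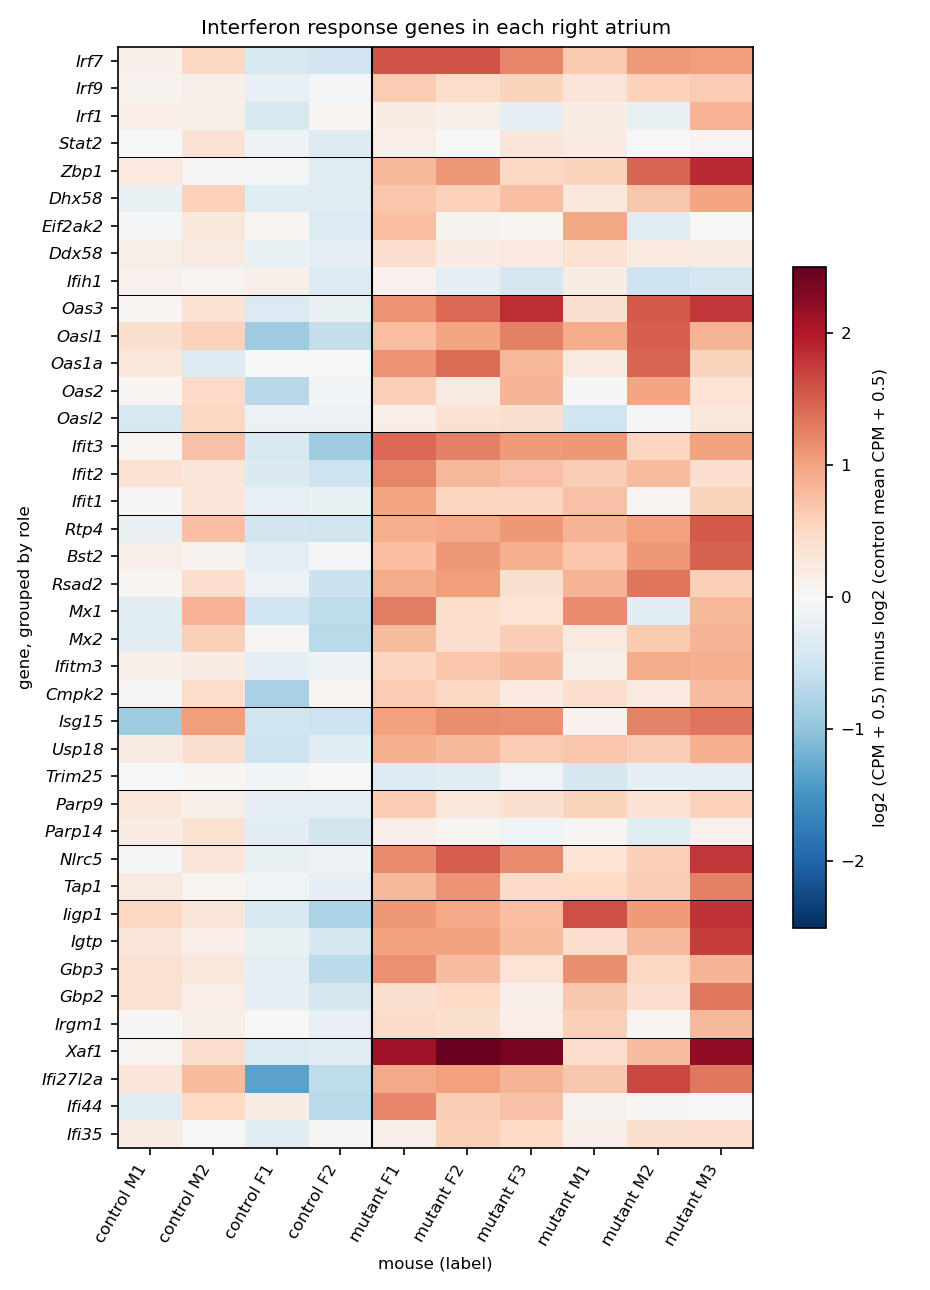
Level of each of the 40 genes (rows, grouped by role) in each mouse (columns) as log2(CPM + 0.5) minus the log2 of the control mean CPM + 0.5, with red above and blue below the control mean. Irf7, Bst2, Ifit3 and Iigp1 are red in all 6 mutant columns, Trim25 is blue in all 6 mutant columns, and the control columns F1 and F2 are bluer than M1 and M2.

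Among the 5 sensors of foreign nucleic acid, Zbp1 and Dhx58 rose. The share to set beside this group and each role group below is the 8.5% of all genes tested that rose. Zbp1 was tested only through the higher values of the mutant mice. Zbp1, a sensor of left-handed nucleic acid that triggers cell death, was at 1.43, 1.16, 1.10 and 0.812 CPM in the control mice and at 1.81 to 5.45 CPM, with a median of 2.65, in the mutant mice. No mutant mouse fell among the control mice, and the highest was mutant M3 (log2 fold change 1.38 ± 0.36 SE, adjusted p = 0.00997). Dhx58, the regulator of the RIG-I-like receptors, averaged 2.62 ± 1.02 CPM in the control and 4.49 ± 0.803 CPM in the mutant mice (0.77 ± 0.24, adjusted p = 0.0271), with overlap because control M2 was at 4.14 CPM. The RIG-I gene itself, Ddx58, was close to the threshold (0.30 ± 0.11, adjusted p = 0.0535). Eif2ak2, the kinase PKR that stops translation on double-stranded RNA, had a log2 fold change of 0.34 ± 0.23 and did not pass (adjusted p = 0.267). The value of Ifih1, the sensor MDA5, was below 0 and did not pass either (-0.20 ± 0.15, adjusted p = 0.352).

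Of the 5 oligoadenylate synthetase genes, whose products make the messenger that activates RNase L or are inactive relatives of such enzymes, Oas3, Oasl1 and Oas1a rose. These genes were tested only through the higher values of the mutant mice, so the filter itself favoured their rise. Oas2 and Oasl2, which reached the filter in the control mice, did not pass the test. In the comparison of all mice, Oas3 had the highest fitted fold of the 40 genes and the lowest level per length. It was at 0.572, 0.827, 0.314 and 0.406 CPM in the control mice, which is 2 to 5 reads per library, and at 0.857 to 3.21 CPM, with a median of 2.37, in the mutant mice. Mutant M1, the lowest of its group with 5 reads, lay just above the highest control mouse, and the change was 2.06 ± 0.42 (adjusted p = 0.00229). At so few reads the size depends on the settings: with a prior count of 5 it was 1.21, below the 1.89 of Xaf1, and with quantile normalization it was 1.49, below the 1.79 of Xaf1.

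Oasl1, an inactive relative that limits the translation of Irf7, was at 1.86, 2.15, 0.470 and 0.677 CPM in the control mice and at 2.52 to 4.51 CPM, with a median of 2.99, in the mutant mice. The groups did not overlap, and the control mice labelled M were both above those labelled F (1.35 ± 0.36, adjusted p = 0.0113). For Oas1a the control mice were at 1.29, 0.662, 0.941 and 0.948 CPM and the mutant mice at 1.20 to 3.50 CPM, with a median of 2.39. Here mutant M1 lay under control M1 (1.34 ± 0.35, adjusted p = 0.0106). Of the 50-base stretches of Oas1a, 57.6% are shared with other genes, mainly its paralog Oas1g, so reads of the pair may not be told apart and the level of Oas1a is uncertain. Oas2 (0.61 ± 0.26, adjusted p = 0.0946) and Oasl2 (0.15 ± 0.20, adjusted p = 0.59) did not pass. Oas2, Oas3 and Oas1a lie in 1 cluster on chromosome 5 in the GENCODE M21 annotation, with 3244 bases between Oas2 and Oas3.

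All 3 genes of the Ifit family, which encode cytoplasmic proteins that bind viral RNA ends, rose. Ifit3 was at 7.14, 11.9, 5.17 and 3.52 CPM in the control mice and at 10.3 to 19.4 CPM, with a median of 15.2, in the mutant mice. Only mutant M2, the lowest, fell below control M2, the highest control mouse (1.16 ± 0.27, adjusted p = 0.00538). Ifit3 shares 51.2% of its 50-base stretches, mainly with Ifit3b, which makes its level uncertain in the same way. Ifit2 averaged 16.8 ± 5.17 CPM in the control and 29.4 ± 5.78 CPM in the mutant mice without overlap (0.82 ± 0.19, adjusted p = 0.00547). The change of Ifit1 was smaller and the groups overlapped (0.62 ± 0.17, adjusted p = 0.0158). The 3 genes are neighbours on chromosome 19, with 7111 bases from Ifit2 to Ifit3 and 52139 bases from Ifit3 to Ifit1.

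**Figure D3:**
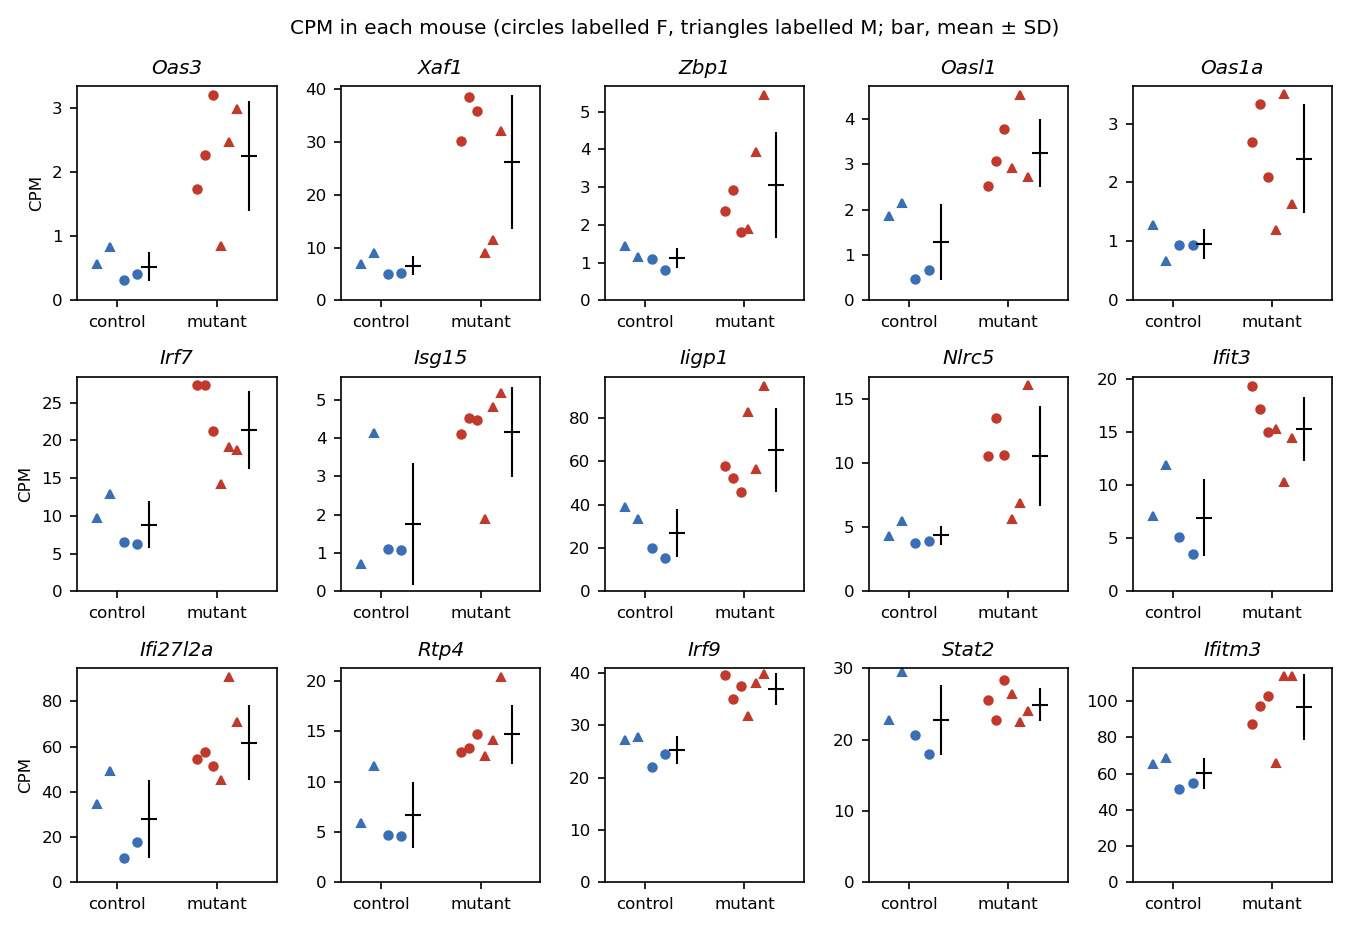
CPM of 15 genes in each mouse (y axis, CPM from 0) for 4 mice labelled control (blue) and 6 labelled Tbx5 mutant (red), with circles for mice labelled F, triangles for mice labelled M, and black bars for the mean ± SD. The groups are apart for Irf7, Irf9, Iigp1 and Rtp4 and overlap for Stat2, and Xaf1 splits the mutant mice into 4 high and 2 low.

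Of the 7 membrane and other antiviral effector genes, Rtp4, Bst2, Rsad2 and Ifitm3 rose. Rtp4, a chaperone of membrane receptors that also restricts flaviviruses, was at 5.86, 11.6, 4.70 and 4.60 CPM in the control mice and at 12.5 to 20.4 CPM, with a median of 13.7, in the mutant mice. Every mutant mouse lay above every control mouse, control M2 being nearest (1.13 ± 0.24, adjusted p = 0.00324). Of its 50-base stretches, 13.6% are shared with another gene model. Ifitm3, a membrane protein that hinders the fusion of entering viruses, was at 65.6, 68.8, 51.4 and 54.8 CPM in the control mice and at 66.2 to 114 CPM, with a median of 100.1, in the mutant mice. Mutant M1 was the only mutant mouse among the control values (0.69 ± 0.14, adjusted p = 0.003). It shares 10% of its 50-base stretches with other genes.

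Bst2, or tetherin, which holds budding virus at the cell surface, had the lowest adjusted p of the 40 genes (0.000231), at 17.8 ± 2.02 CPM in the control and 36.6 ± 7.88 CPM in the mutant mice (1.03 ± 0.15). Its control mice ranged from 15.2 to 19.7 CPM and its mutant mice from 29.1 to 50.6 CPM, so the groups were apart. Rsad2, or viperin, a radical enzyme that makes a chain-terminating nucleotide, went from 6.30 ± 1.92 to 12.2 ± 2.91 CPM (0.97 ± 0.22, adjusted p = 0.00495). Its neighbour Cmpk2, a mitochondrial nucleotide kinase that lies 12751 bases away on chromosome 12, had a value of 0.49 ± 0.21 and did not pass (adjusted p = 0.0818). Mx2 (0.69 ± 0.25, adjusted p = 0.051) and Mx1 (0.93 ± 0.45, adjusted p = 0.131), dynamin-like GTPases against viruses, did not pass either. RefSeq lists both Mx genes of this reference mouse strain as transcribed pseudogenes.

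In the Isg15 system, Isg15 and Usp18 rose and Trim25 was lower. Of these, Isg15 was tested only through the higher values of the mutant mice. Isg15, a ubiquitin-like protein that is attached to other proteins, was at 0.714, 4.14, 1.10 and 1.08 CPM in the control mice and at 1.89 to 5.17 CPM, with a median of 4.50, in the mutant mice. The groups overlapped, with control M2 about as high as most mutant mice and mutant M1 nearer to the control mice (1.27 ± 0.42, adjusted p = 0.033). Without control M2 the log2 fold change was 2.09. Leaving out 1 library ended the call of Isg15 for control M1, F1 or F2 or mutant F2, F3, M2 or M3. Usp18, the protease that removes Isg15 and also dampens the type I receptor, was steadier, at 4.02 ± 1.29 CPM in the control and 7.18 ± 0.662 CPM in the mutant mice with no overlap (0.83 ± 0.20, adjusted p = 0.00641). Trim25, a ubiquitin ligase that activates RIG-I, was at 47.0, 48.6, 44.7 and 46.6 CPM in the control mice and at 34.3 to 43.9 CPM, with a median of 39.1, in the mutant mice. Every mutant mouse was lower, by less than the 1.5-fold threshold (-0.27 ± 0.09, adjusted p = 0.0304). Its value stayed below 0 in all 23 alternative fits, from -0.32 to -0.14, while the adjusted p ranged from 0.023 to 0.273.

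Parp9 and Parp14, neighbouring genes on chromosome 16 for ADP-ribosyltransferase family proteins, differed. Parp9 passed the test at a smaller fold (0.48 ± 0.13, adjusted p = 0.0106), and 9.09% of its 50-base stretches are shared with other genes, mainly Dtx3l. Parp14 averaged 56.7 ± 15.5 CPM in the control and 56.8 ± 6.58 CPM in the mutant mice (0.0021 ± 0.15, adjusted p = 0.993), with control M1 and M2 above all mutant mice.

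Both antigen presentation genes of the list rose without overlap of the groups. Nlrc5, the transactivator of class I genes, was at 4.29, 5.46, 3.76 and 3.93 CPM in the control mice and at 5.66 to 16.1 CPM, with a median of 10.6, in the mutant mice. Mutant M1 and M2 were the lowest of their group and mutant M3 the highest (1.25 ± 0.27, adjusted p = 0.00354). Tap1, a subunit of the peptide transporter, averaged 11.8 ± 1.71 CPM in the control and 21.4 ± 5.25 CPM in the mutant mice (0.85 ± 0.18, adjusted p = 0.00282).

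Of the 5 interferon-induced GTPase genes, Iigp1, Igtp, Gbp3 and Gbp2 rose and Irgm1 passed the test at a smaller fold (0.44 ± 0.14, adjusted p = 0.0292). Iigp1, an immunity-related GTPase that damages parasite vacuoles, was at 38.9, 33.3, 20.2 and 15.4 CPM in the control mice and at 45.7 to 95.0 CPM, with a median of 57.3, in the mutant mice. The groups were apart, with mutant M3 and M1 the highest (1.26 ± 0.26, adjusted p = 0.00256). Igtp, of the same family, went from 13.9 ± 3.14 to 28.6 ± 9.83 CPM with no overlap (1.03 ± 0.22, adjusted p = 0.00384), and 12.3% of its 50-base stretches are shared, mainly with Irgm2. The guanylate-binding protein genes Gbp3 (0.85 ± 0.22, adjusted p = 0.0093) and Gbp2 (0.62 ± 0.21, adjusted p = 0.0407) rose with overlap of the groups. The call of Gbp2 was lost without mutant M3, M1 or F2 or without control M2, F1 or F2.

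The last 4 genes encode other interferon-induced proteins, of which Xaf1 and Ifi27l2a rose. Xaf1, a partner of the caspase inhibitor XIAP, was at 6.86, 8.93, 5.02 and 5.28 CPM in the control mice and at 8.91 to 38.4 CPM, with a median of 31.1, in the mutant mice. The mutant mice were not alike: F1, F2, F3 and M3 lay between 30.1 and 38.4 CPM, while M1 at 8.91 and M2 at 11.5 CPM were near control M2, and M1 was just under it. The change was 2.01 ± 0.39 (adjusted p = 0.00191). Ifi27l2a, which encodes a small hydrophobic protein, was at 34.7, 49.1, 10.8 and 18.0 CPM in the control mice and at 45.1 to 90.7 CPM, with a median of 56.0, in the mutant mice. Its 4 control mice spread widely, those labelled M being above those labelled F, and control M2 overlapped mutant M1 (1.13 ± 0.32, adjusted p = 0.0167). Ifi35 passed at a smaller fold (0.39 ± 0.13, adjusted p = 0.0288) and Ifi44 did not pass (0.58 ± 0.28, adjusted p = 0.133).

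**Figure D4:**
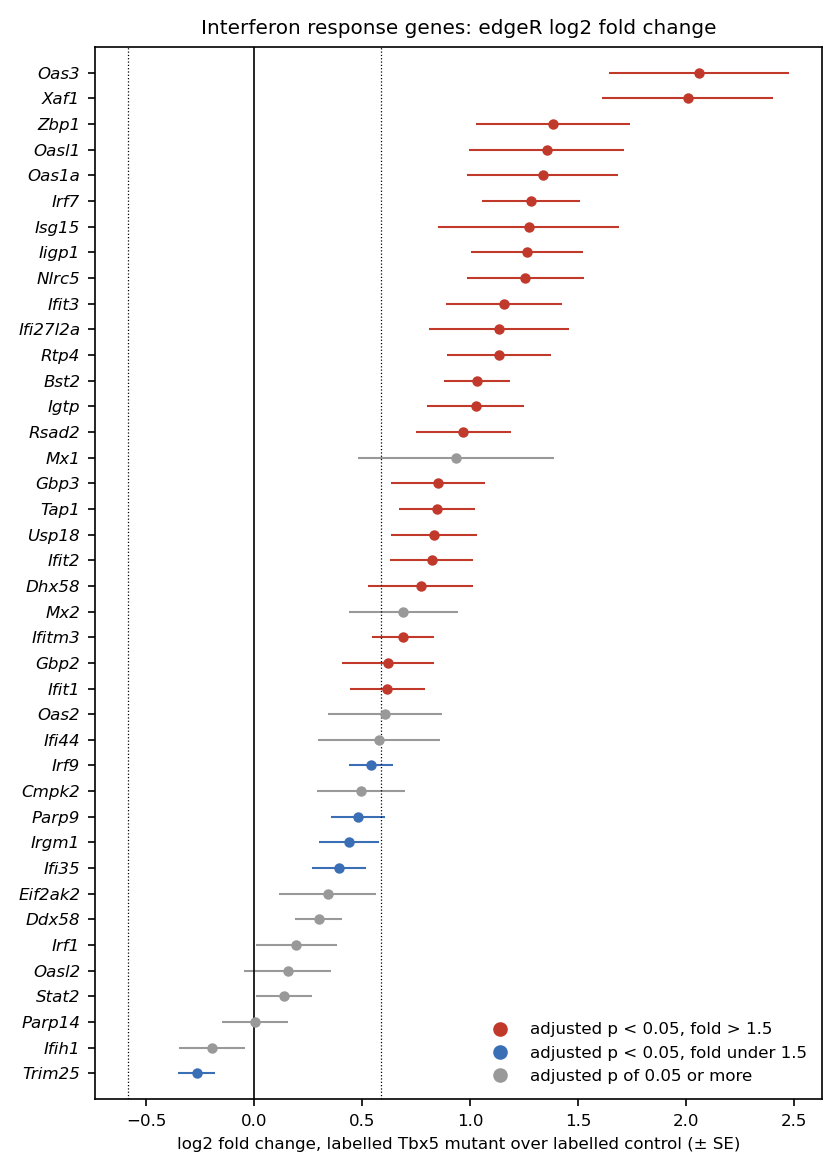
Log2 fold change of the 40 genes (x axis, labelled mutant over labelled control, ± SE), sorted, with dotted lines at a fold of 1.5 either way. The 23 red genes passed the adjusted p and the fold, the 5 blue genes passed the adjusted p with a smaller fold, and the 12 grey genes did not pass.

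The mice of a group differed in the whole set of genes. The median of the 40 genes' log2 ratios to the control mean was 0.10 in control M1, 0.30 in control M2, -0.23 in control F1 and -0.31 in control F2, and 0.42 to 0.85 in the mutant mice. The mutant mice were all above the control mice by this measure, with mutant M1 the lowest and mutant M3 the highest. In the control mice the mean of those labelled M was above that of those labelled F for 40 of the 40 genes, and both M mice were above both F mice for 31. In the mutant mice the mean of those labelled F was the higher for 23 of the 40. The shares of all genes tested with these orders were not determined. These counts therefore cannot be read as particular to the 40 genes. The interaction of genotype and sex label passed an edgeR adjusted p under 0.05 for 0 of the 40 genes and for 0.29% of all genes tested. At an unadjusted p under 0.05 there were 11 of the 40, where 10.4% of all genes passed. limma, run as an alternative, gave 0 of the 40 at the adjusted p, and 10 of the 40 and 9.92% of all genes at the unadjusted p. The lowest interaction p belonged to Irf7 (adjusted p = 0.0892). The interaction used the sex labels as given, and the sex-linked reads of all 4 control mice go against them. Xist was at 1450 and 1299 CPM in control M1 and M2, and at 0.784 and 1.90 CPM in control F1 and F2. These interaction values are therefore not a result on genotype and sex as the reads give it. An interaction with the control labels exchanged is not given here. With 2 control mice per label, sex and other differences between the 4 control mice cannot be told apart.

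Further genes of the pathway, from ligands to antigen presentation, were taken from another list, also chosen with earlier results of these data known. Of its 82 genes, 74 were in the table and 60 had enough reads to be tested. Of the 60, 19 rose and 0 fell in edgeR's test, where 8.5% of all genes tested were called higher and 7.16% lower. DESeq2 and limma called 0 lower too. At an unadjusted p under 0.05, 4 were lower, a count for which no share of all genes is given. The median log2 fold change was 0.37. Transcripts of the interferons themselves were hardly counted: Ifnb1 had at most 1 read in any library and Ifng at most 1, so that no difference in either was detectable at this depth. Among receptors and the signalling genes directly after them, 2 of 10 rose, Ifngr2, a chain of the type II receptor (0.61 ± 0.09, adjusted p = 0.000263), and Socs3, a feedback inhibitor of the kinases (0.95 ± 0.18, adjusted p = 0.00142). The receptor gene Ifnar1 passed at a smaller fold (0.32 ± 0.11, adjusted p = 0.0438), and Ifnar2 did not pass (0.09 ± 0.10, adjusted p = 0.51). The 3 pathway genes that were lower at the adjusted p alone were all kinases of these receptors: Jak1 (-0.37), Jak2 (-0.36) and Tyk2 (-0.43). Of all genes tested, 15% were lower by this measure.

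Among 12 tested genes of sensing and induction, Irf5, Tmem173 and Tlr7 rose. The share to set beside each list below is the 8.5% of all genes tested that rose. Tlr7, an endosomal receptor for single-stranded RNA, changed most (1.18 ± 0.22, adjusted p = 0.00152), followed by Tmem173, which encodes STING (0.85 ± 0.17, adjusted p = 0.00182). Of 27 other interferon-induced genes, 7 rose: Tgtp2, Slfn2, Ifi204, Ifi47, Lgals3bp, Irgm2 and Ly6e, with log2 fold changes of 0.71 to 1.45. The highest value is that of Tgtp2, which had 3 to 6 reads in the control mice and was tested only through the mutant mice, and the other 6 reached at most 1.17. In class I presentation 7 of 11 rose, the largest share of these lists. B2m, the light chain of all class I molecules, went from 189.9 ± 33.7 to 431 ± 44.5 CPM (1.18 ± 0.13, adjusted p = 2.09e-05). The heavy chain genes H2-K1 (1.03 ± 0.18, adjusted p = 0.000935) and H2-D1 (0.85 ± 0.26, adjusted p = 0.0222) also rose. So did the immunoproteasome genes Psmb8, Psmb9 and Psmb10 and the proteasome activator gene Psme2. The groups overlapped for H2-D1, Psmb9 and Psme2. For H2-D1, control M1 was at 330.5 CPM, within the mutant range of 291.6 to 552.3 CPM. Tap2 (0.05) and Tapbp (0.11), which act beside Tap1 in peptide loading, did not pass.

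Markers of several cell types, leukocytes among them, were higher in the mutant mice, where 8.5% of all genes tested rose. All 4 pan-leukocyte markers (Ptprc, Cd52, Coro1a and Laptm5) rose, and their sum was 35.8 to 48.6 CPM in the control and 77.3 to 92.8 CPM in the mutant mice. Of 8 macrophage markers 7 rose, with a sum of 389 to 514 CPM against 591 to 899 CPM. Within the mutant group, M1 was lowest for both sums and for the median of the 40 genes. M2 was highest for both sums, whereas M3 was highest for that median. T, NK and B cell markers were near 0: none of the 10 had enough reads to be tested, the highest count of any of them was 11 reads, and their sum was 2.30 to 4.86 CPM in the control and 2.04 to 4.60 CPM in the mutant mice. The 5 granulocyte and dendritic cell markers in the table were not tested either, with sums of 1.25 to 2.72 CPM and 2.51 to 9.32 CPM. The 5 endothelial markers summed to 936 to 1332 CPM in the control and 1043 to 1245 CPM in the mutant mice, and 2 of 5 fibroblast markers, both collagen genes, rose while Pdgfra was lower at the adjusted p alone (-0.40, adjusted p = 0.0152) and Dcn and Lum did not pass (sums of 2635 to 3266 against 3209 to 4416 CPM). Of 3 tested ventricular cardiomyocyte markers, Myl2 and Myl3 rose and Myh7 did not pass (adjusted p = 0.208), with a sum of 189 to 294 CPM against 785 to 1586 CPM. The adipocyte markers summed to 133 to 194.7 CPM in the control and 197 to 387 CPM in the mutant mice. Of these, Fabp4, the only one tested, rose, and mutant M2 had the most reads of Adipoq, 62. In bulk tissue, more cells of a type and more RNA per cell cannot be told apart, and the part of the leukocytes in the rise of the interferon response genes was not tested.

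**Figure D5:**
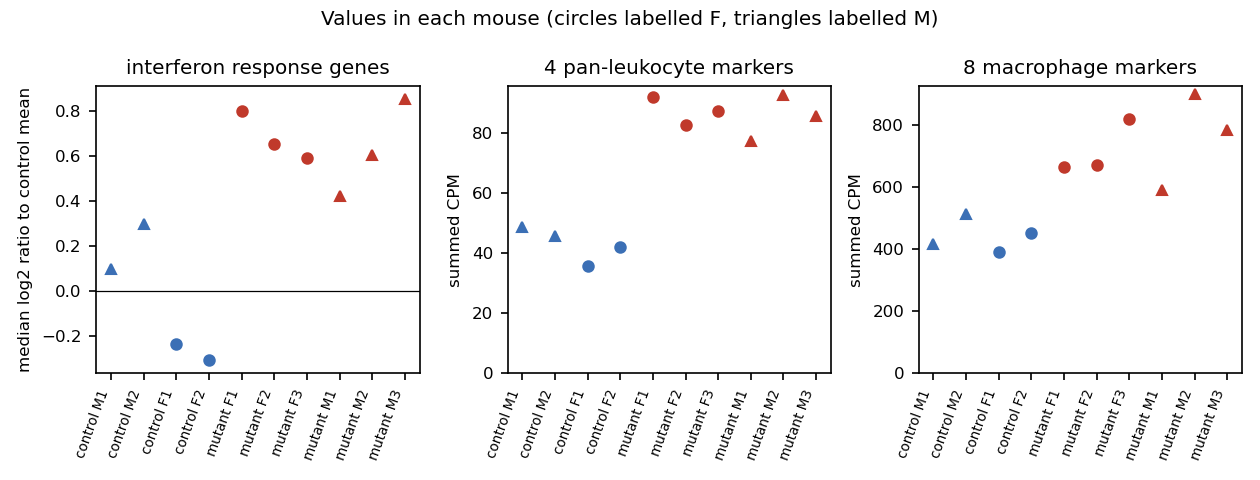
Values in each mouse (x axis) of the median log2 ratio of the 40 genes to the control mean (left), the summed CPM of 4 pan-leukocyte markers (middle) and the summed CPM of 8 macrophage markers (right), with circles for mice labelled F and triangles for mice labelled M. In all 3 panels the 6 mutant mice (red) lie above the 4 control mice (blue).

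Leaving out 1 library at a time, the number of interferon response genes that rose was between 18, without control F2, and 27, without control M2, and it was 21 without mutant M3, the library rich in Rn45s. Of the 23 genes, 17 rose whichever single library was left out, and the calls of Dhx58, Oas1a, Ifit1, Isg15, Gbp2 and Ifi27l2a were each lost without at least 1 library. These were control M1, F1 or F2 for Dhx58, control F1 or F2 or mutant F1 or M1 for Ifit1, and control F2 for Ifi27l2a. Oas1a fell under the filter on low counts without mutant F1, F2, F3 or M2. When each library's trend on transcript length was removed, 18 rose and the calls of Ifit1, Isg15, Ifi27l2a, Ifitm3 and Gbp2 were lost.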

How the data were processed

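The 40 genes and the lists of pathway and marker genes were chosen with earlier results of these data known. The authors deposited 1 table with the whole-number count of reads per gene and library, the same counts divided by DESeq2 size factors (a normalized signal), and their own comparison (log2 fold change, Wald score, p-value and fold change as a ratio), which was not used. Per the labels, the submitters' notes name FastQC, TopHat2 2.0.11, featureCounts, DESeq2 and mm10. The annotation and strand setting are not given in the sources used here, so overlapping genes on opposite strands may share reads, and the labels describe both an mRNA kit and ribosomal RNA removal. The library totals put the floor of 3 counts at 4.23e-05% to 5.26e-05% of a library, which covers counting error only since reads carry no molecular identifiers.

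Counts were tested with edgeR 4.0.16 in R 4.3.3 (expression filter, TMM scaling, prior count 0.125, quasi-likelihood test over 13084 genes, all 10 libraries, no covariates, Benjamini-Hochberg adjustment over all genes). The SE was derived as the absolute log2 change divided by the root of the F statistic. The 12 genes with the largest change at an adjusted p under 0.05 and at least 1 CPM, and Irf7, Irf9, Stat2, Isg15, Ifit3 and Ifitm3, are given in full, as are called pathway genes and Ifnar1, Ifnar2, Ifnb1 and Ifng, and 1 further gene of this rule is not reported here. Bst2 and Trim25 were singled out after their values were seen. Within groups, the chi-square per degree of freedom between libraries was at least 3.78 in all 21 pairs. The labels name separate mice but no cage, litter or run. The fit was tested on simulated data. Transcript lengths and shared 50-base stretches came from GENCODE M21. Alternatives were DESeq2 1.42.0, limma 3.58.1, other scalings, filters, thresholds and prior counts, sex label covariates, a replicate block, removal of length trends, counts without Rn45s and leaving out each library.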

Additional observations from a re-analysis of the deposited data

Results flagged for a closer look

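Of 124 groups of values (4 or 6 mice, 1 gene each) examined for a mouse standing far from its group, 12 held one, and about 6.2 would by chance, since the criterion marks about 1 in 20 groups. No explanation was tested for any of them.

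Control M2 stood high for Isg15 (4.14 CPM, 25 reads, next highest control mouse 1.10 CPM), Dhx58 (4.14 CPM, next 2.29) and Mx1 (2.81 CPM, next 1.00). Mutant M3, the library with 38.9% of its reads on Rn45s, stood high for Gbp2 (83.9 CPM, next 53.5), Igtp (47.4 CPM, next 28.4), Irf1 (69.7 CPM, next 43.2), Rtp4 (20.4 CPM, next 14.8) and the pathway gene Irgm2 (63.2 CPM, next 38.4). Mutant M1 stood low for Isg15 (1.89 CPM, 11 reads, next lowest mutant mouse 4.10 CPM) and for B2m (350.2 CPM, next 426). Control F2 stood low for Ifih1 (26.4 CPM, next 35.1) and high for Psme2 (3.79 CPM, next 3.00).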

How the results depend on the processing

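There were 23 alternative fits. Of the 40 interferon response genes, 21 kept their direction and their side of the adjusted p of 0.05 in every fit that tested them. Among these 21, Oas1a was tested in 18 fits and Zbp1, Oas3, Oasl1 and Nlrc5 in 22 each. A further 11 lost the threshold in at least 1 fit, 5 gained it in at least 1, and 3 changed sign in at least 1. The 23 genes that rose had a log2 fold change above 0 in every fit that tested them. Irf7, Rtp4, Bst2, Iigp1, Igtp and Xaf1 were called under every alternative. The number that rose was 15 with a mean count of at least 50, which left 29 of the 40 genes to test, and 14 at a fold over 2, where 7 other pathway genes rose. With no fold threshold 1 interferon response gene and 3 other pathway genes were lower. With DESeq2 24 rose, with limma 23, with sex label as covariate 23, and with the control labels exchanged 24.

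Samples with the same replicate number did not deviate together (correlations of -0.047 to 0.036 over 4 pairs), which gives no sign that the numbers pair mice. Going by Xist and Ddx3y, each pair joined a control and a mutant mouse of opposite sex, so these correlations do not test another pairing. With a replicate block 20 interferon response genes and 18 other pathway genes rose and 1 other pathway gene was lower. With the replicate block and the length trend removed, 16 and 13 rose and 1 other pathway gene was lower, and the log2 fold changes of Irf1 (-0.0086), Ifih1 (0.0062) and Ifnar2 (-0.019) changed sign.

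Without 1 library, 18 to 27 interferon response genes rose and 0 fell, 17 to 21 other pathway genes rose and 0 to 1 were lower (1 without mutant F3), and the interaction with sex label passed for 0 to 1 gene (1 without mutant M3). Parp14, near 0 in the comparison of all mice, ranged from -0.12 (without control F2) to 0.16 (without control M2), and was below 0 in 6 of the 10 such fits. Without 1 library, the calls of H2-D1 (control F1 or F2) and Psme2 (control M1, M2 or F1 or mutant F2) and the adjusted p of Ifnar1 were lost. Ddx58 and Mx2 passed the adjusted p in 8 alternative fits each. The cause of these changes was not tested. At these depths, the lowest genes rest on few reads, 2 to 5 in the control mice for Oas3.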
